A study of Mus musculus with 9 samples.

Results

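RNA that came down with Roquin from macrophage lysates was compared with RNA that came down with beads alone. The comparison rests on 6 of the 9 libraries of the series, 3 Roquin immunoprecipitations (IPs) against 3 control IPs, and on all 20467 genes that the count table lists by symbol. All cells were RAW264.7, an established mouse macrophage line, and all had received lipopolysaccharide (LPS), a bacterial cell wall component that activates macrophages, at 100 ng/ml for 2 h. The Roquin IP used rabbit polyclonal antibodies (Bethyl) with protein A/G beads, and the control IP used protein A/G beads with no antibody. The other 3 libraries, of RNA taken before the IP (input), entered the fit to share its estimate of the spread. They also took part in the choice of genes to test and in the scaling between libraries. Because the control held no antibody, RNA bound through Roquin and RNA bound through the antibodies themselves cannot be told apart in this contrast. The series' design text gives the replicates as biological, and the cells are of a single line, so the p-values measure the spread between preparations of that line.

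Roquin-1 and Roquin-2, encoded by Rc3h1 and Rc3h2, are RNA-binding proteins with a RING domain and a ROQ domain that grips short stem-loops in the 3′ untranslated regions (3′UTRs) of mRNAs. They bring the CCR4-NOT deadenylase and the decapping machinery to the bound mRNA, which is then degraded. In T cells they are known for limiting Icos and other costimulatory receptors, and in macrophages for limiting Tnf. The classic Roquin stem-loop, the constitutive decay element, has a short stem closed by a loop of pyrimidine, purine and pyrimidine.

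The stem-loop letters are shown first for a selection of enriched genes that hold them. Other strongly enriched genes, such as Irf4 and Socs1, hold no match in the longest annotated 3′UTR. Each line gives 21 bases of the 3′UTR in mRNA sense, 5′ to 3′, with the 9 bases of the core in capitals. The core is TTC, then a pyrimidine, a purine and a pyrimidine, then GAA, so that TTC and GAA can pair. Every line shown also allows 2 further base pairs outside the core, G with U included.
Nfkbid, first site: ggtgatTTCTGTGAAatcgag
Nfkbid, second site: gattgtTTCTGTGAAacactc
Tnf: catgttTTCTGTGAAaacgga
Rc3h1: aataacTTCTGTGAAgttgcc
Rc3h2: attaacTTCTGTGAAgttgtt
Nfkbiz: agttgtTTCTATGAAacaaac
Bmpr1a: ggtgctTTCTGTGAAagcctt
Icos: caaaatTTCTGTGAAataaaa
Ier3: tgtatgTTCTGTGAAcacgaa
Ppp1r10: gttgttTTCTATGAAaacagt
Fbxo11: ccttctTTCTATGAAagagaa
Lpin1: tactctTTCTGTGAAagaaaa
Fos: acagttTTCCATGAAaacgtt
These sites lie in annotated 3′UTR exons of GRCm38 (GENCODE annotation). The Nfkbid sites are at chr7:30428399-30428419 and chr7:30428427-30428447 on the plus strand, the Tnf site is at chr17:35199582-35199602 on the minus strand, and the Rc3h1 site shown is at chr1:160971657-160971677 on the plus strand. Rc3h1 holds a further site of the same kind, at chr1:160968036-160968056, that is not shown. The Rc3h2 site is at chr2:37373806-37373826, the Nfkbiz site at chr16:55812611-55812631 and the Bmpr1a site at chr14:34414161-34414181, all on the minus strand. The Icos site is at chr1:60999483-60999503, the Ier3 site at chr17:35822871-35822891, the Ppp1r10 site at chr17:35932144-35932164 and the Fos site at chr12:85477075-85477095, all on the plus strand. The Fbxo11 site is at chr17:87991431-87991451 and the Lpin1 site at chr12:16536987-16537007, both on the minus strand. A match is a match of letters and not evidence of binding at that position.

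Library totals were 3547517 to 12975767 reads in the Roquin IP, 2929537 to 8466096 in the control IP and 1799390 to 2122288 in the input. Levels below are CPM, normalised read counts per 1000000 reads. The reads of each library in tested genes are first multiplied by its TMM factor, which aligns the bulk of genes between libraries. These factors were 0.610 to 0.802 in the Roquin IP and 1.12 to 1.38 in the control IP, so CPM are not shares of reads. A count of 0 allows a level of up to 0.258 to 1.26 CPM, depending on the IP library, for counting error only. Macrophage genes were present: in the input, Csf1r, the CSF1 receptor, was at 159 ± 51.9 CPM (SD, n = 3) and Cd68 at 130.5 ± 13.4 CPM. Csf1r shares 873 exon bases with Hmgxb3 on the other strand, so its level is uncertain. Of 53 markers of lymphocytes, fibroblasts, epithelium, endothelium, neutrophils and mast cells, 28 had no count in any library, among them Cd3e, Epcam, Cldn5 and Elane. The 2 that passed the count filter, Lck and Acta2, were not called. Summed lymphocyte markers were at 1.16 to 4.61 CPM in the Roquin IP and 1.38 to 10.96 CPM in the control IP, and no other list exceeded 5.67 CPM in an IP library. The third input library stood apart for some bound mRNAs: Nfkbid was at 129, 31.2 and 719.6 CPM and Tnf at 1841, 1635 and 4601 CPM in the 3 inputs. Without the inputs, 372 genes were called higher, 338 of them shared with the fit on all 9 libraries.

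Of 9567 genes with enough counts to test, 360 were higher in the Roquin IP (3.76%) and 0 were lower (0%) at an adjusted p under 0.05 in edgeR's quasi-likelihood test. A fit with the replicate number as a block called 528 higher (5.52%), all 360 among them, and 11 lower (0.115%). Without adjustment, 759 genes were higher and 204 lower at p under 0.05, and DESeq2 called 475 higher and 6 lower. The 360 genes are named the bound mRNAs below, for their enrichment in this contrast alone. The 3 Roquin IP libraries were above all 3 control IP libraries for each of the 360, so the groups do not overlap for any bound mRNA named here. Over all tested genes, that held for 1027 (10.7%), and the reverse order held for 765 (8.00%). The bound mRNAs held 45.7%, 56.1% and 46.6% of the reads in the 3 Roquin IP libraries and 3.09% ± 0.0921 (SD, n = 3) in the control IP. Without Tnf, Nfkbid, Ccl4 and Rc3h1 the other 356 still held 11.9% ± 2.50 of the Roquin IP reads and 2.65% ± 0.126 of the control IP reads. Since so much of each Roquin IP library came from a few mRNAs, scaling matters: the median log2 fold change of all tested genes was -0.12 with TMM factors and -0.96 with library size alone, and all changes are read relative to the former. With library size alone, 257 genes were higher and 3708 lower.

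**Figure D1:**
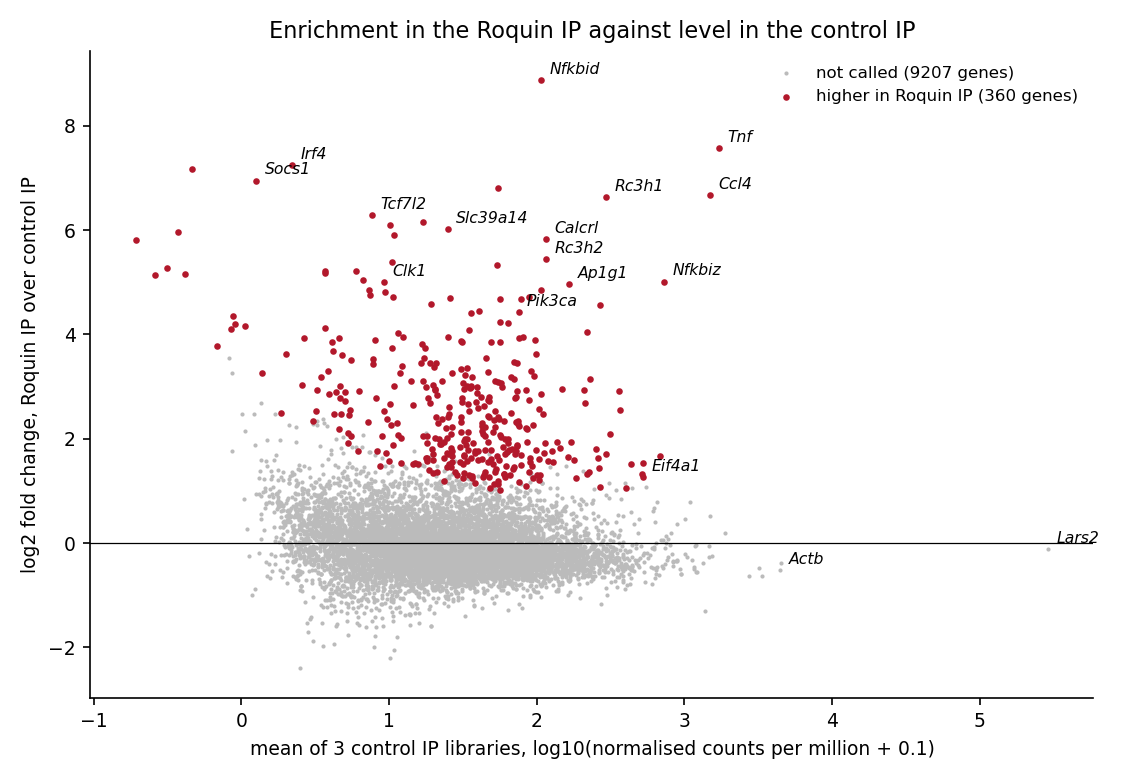
Each point is a tested gene, with its mean level in the 3 control IP libraries on the x axis (log10 of CPM + 0.1) and its log2 fold change in the Roquin IP over the control IP on the y axis. The 360 bound mRNAs (red) spread over the range of control levels, with Nfkbid at 8.87 at the top, while Lars2 lies near 0 and Actb at -0.52.

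The Roquin mRNAs themselves were among the bound mRNAs. Rc3h1 gave 34887, 27570 and 24680 CPM in the Roquin IP and 374, 283 and 226 CPM in the control IP (log2 fold change 6.63 ± 0.43, edgeR adjusted p = 6.86e-07). Here and below, ± is an approximate SE of the log2 fold change. It is the absolute log2 fold change divided by the square root of the test's F value. Values are in the order of libraries 1 to 3. Its paralogue Rc3h2 gave 5762, 3661 and 5688 CPM in the Roquin IP and 122.7, 119.5 and 104 CPM in the control IP (log2 fold change 5.45 ± 0.34, edgeR adjusted p = 6.86e-07). Every Roquin IP library stood far above every control library for both genes, by 98.8-fold and 43.7-fold on the fitted scale, and both carry the stem-loop letters shown above. These mRNAs do not report how much Roquin protein was pulled down. The abundant reference mRNA Actb, encoding beta-actin, was at 1778, 3952 and 3605 CPM in the Roquin IP and 2473, 6236 and 4656 CPM in the control IP (log2 fold change -0.52 ± 0.38, edgeR adjusted p = 0.723), and Gapdh, the glycolytic enzyme, was at 48.2, 56.4 and 33.6 CPM in the Roquin IP and 66.7, 96.8 and 47.4 CPM in the control IP (log2 fold change -0.61 ± 0.34, edgeR adjusted p = 0.639), and neither passed the test. Lars2, a mitochondrial leucyl-tRNA synthetase gene, took a large part of the reads in all libraries. It was at 356329, 246351 and 197950 CPM in the Roquin IP and 370135, 292233 and 207771 CPM in the control IP. Whether all these reads stem from Lars2 mRNA was not tested. Lars2 did not pass either (edgeR adjusted p = 0.938), with an estimate that changed sign when Roquin IP 3 or control IP 1 was left out.

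The bound mRNAs were sorted by role with 65 function lists, of which 51 held a bound mRNA. The lists took in 3990 of the tested genes (41.7%) and 167 of the 360 bound mRNAs (46.4%), and a gene can be in several lists. The counts of each list are read against the 3.76% of all tested genes that were called. The median log2 fold change of a list is read against -0.12 for all tested genes. The lists were chosen with earlier results of these data known, so a share above 3.76% is a description and not a test.

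**Figure D2:**
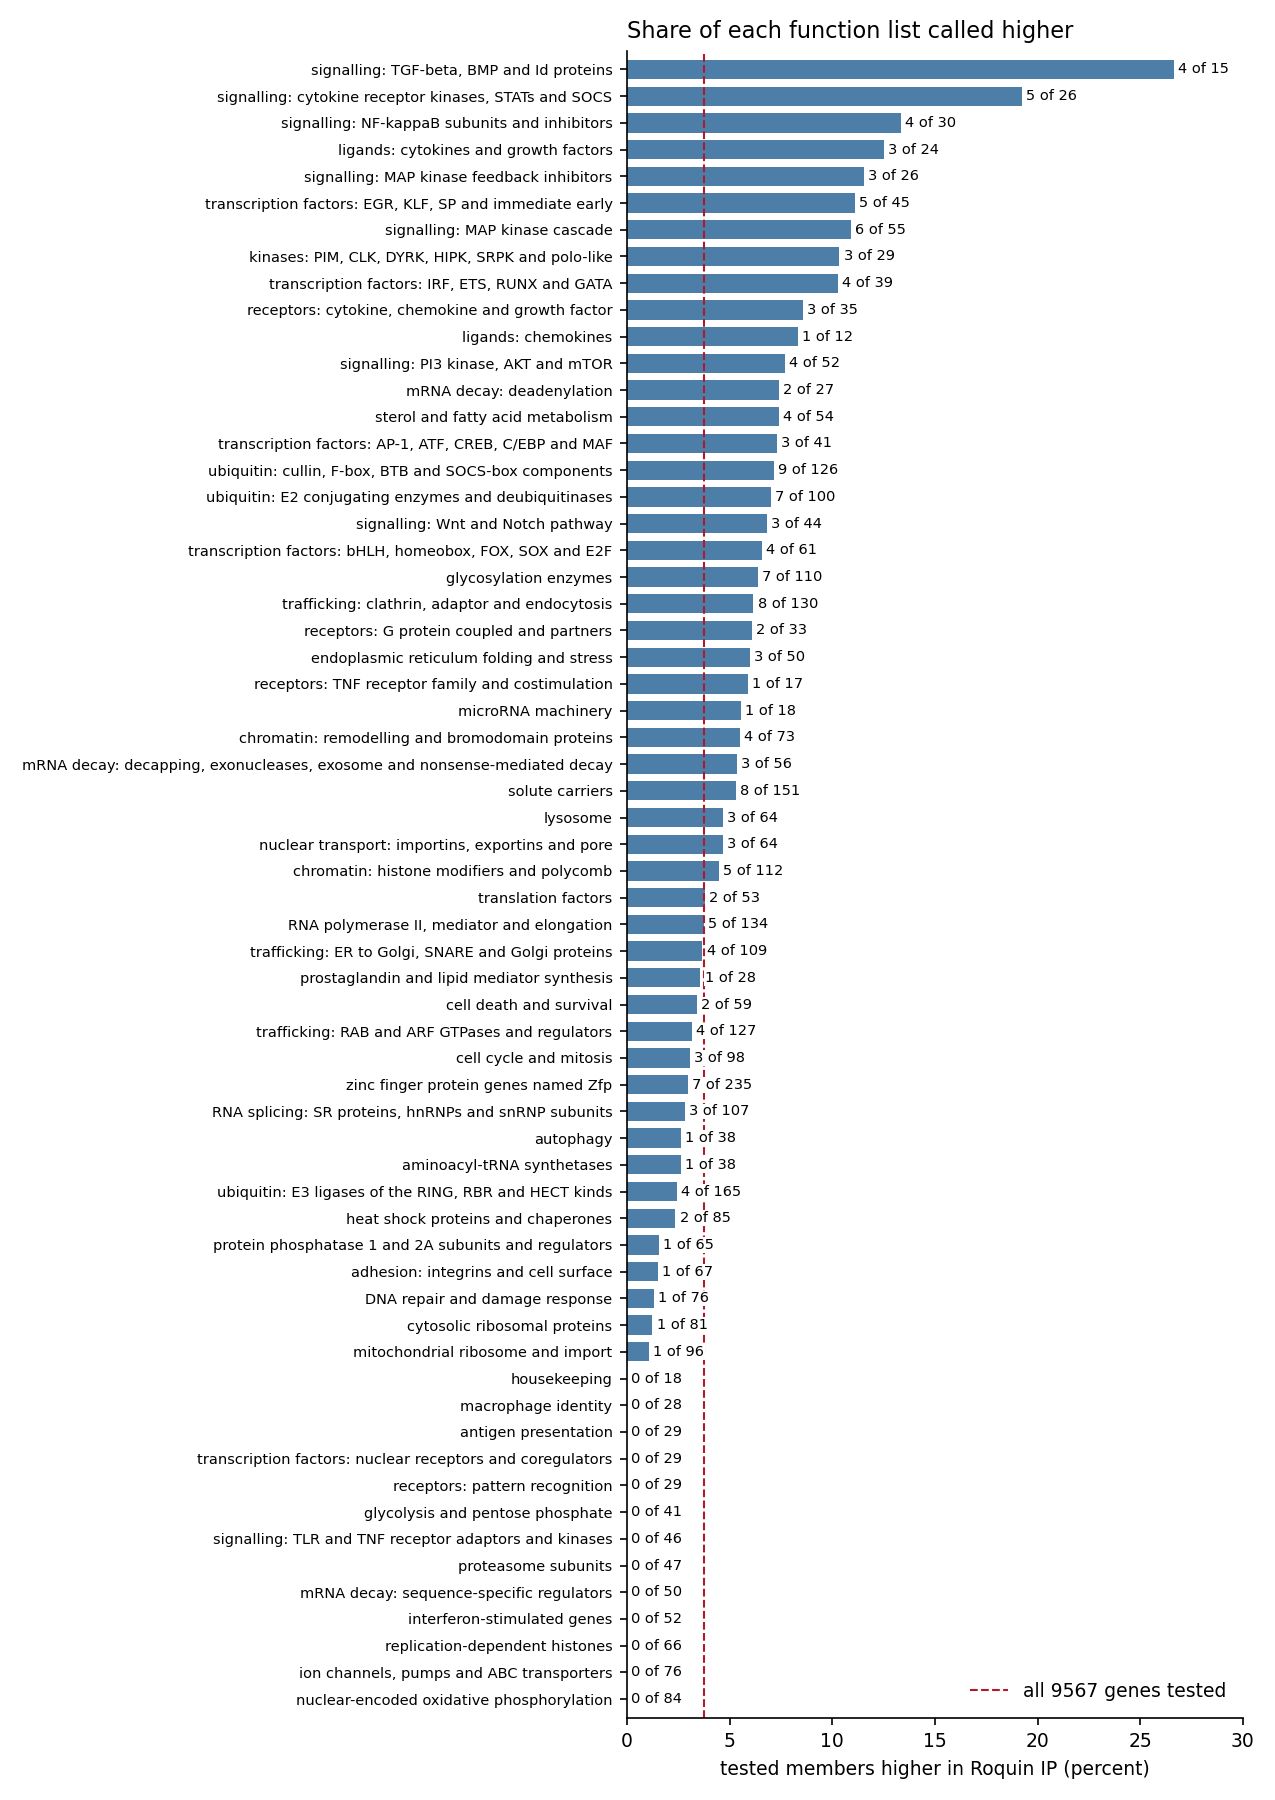
Bars give the percent of each list's tested members that were higher in the Roquin IP, with the count beside each bar and the share of all tested genes as a dashed line at 3.76%. The lists of Id and TGF-beta signalling (4 of 15) and of cytokine receptor kinases, STATs and SOCS proteins (5 of 26) are at the top. Several lists with no called member share the bottom, ordered by number tested, oxidative phosphorylation (0 of 84) among them. The list of the Roquin genes (2 of 2) is not drawn.

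Among secreted ligands, Tnf, Csf3 and Ccl4 were strongly enriched. Tnf, the inflammatory cytokine, gave 307641, 446945 and 220176 CPM in the Roquin IP and 2339, 1761 and 1043 CPM in the control IP (log2 fold change 7.57 ± 0.63, edgeR adjusted p = 2.97e-06). Csf3, the granulocyte growth factor G-CSF, gave 528, 1367 and 1764 CPM in the Roquin IP and 12.5, 16.9 and 21.7 CPM in the control IP (log2 fold change 6.15 ± 0.63, edgeR adjusted p = 1.91e-05). Both were more than 70-fold higher in the Roquin IP, although Csf3 lacks the stem-loop letters in its longest 3′UTR. Of the cytokine and growth factor list, 3 of 24 tested members were called (12.5%), with a median of 0.15. Edn1, the vasoconstrictor endothelin, was the other called member at 7.13, 14.9 and 5.42 CPM in the Roquin IP and 0, 0.98 and 0.774 CPM in the control IP. Edn1 lost its call without Roquin IP 1, 2 or 3 or control IP 2 or 3 (edgeR adjusted p from 0.0564 to 0.274). Of the chemokines, 1 of 12 was called (8.33%), and 2 with the replicate number as a block or without control IP 3. Ccl4, an inflammatory chemokine that attracts immune cells, gave 106334, 249284 and 101112 CPM in the Roquin IP and 1022, 2121 and 1342 CPM in the control IP (log2 fold change 6.67 ± 0.62, edgeR adjusted p = 8.57e-06). No Roquin IP library came near the control range for Ccl4, and the median of all 12 tested chemokines was 0.43.

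Receptor mRNAs were bound in the growth factor, G protein coupled and costimulatory classes. Bmpr1a, a type I receptor for bone morphogenetic proteins, gave 1794, 1754 and 2533 CPM in the Roquin IP and 88.3, 64.3 and 83.4 CPM in the control IP (log2 fold change 4.69 ± 0.32, edgeR adjusted p = 6.86e-07). Calcrl, the receptor for calcitonin gene-related peptide and adrenomedullin, gave 3637, 7965 and 8211 CPM in the Roquin IP and 76.7, 135 and 136 CPM in the control IP (log2 fold change 5.83 ± 0.43, edgeR adjusted p = 1.08e-06). Ptger4, the EP4 receptor for prostaglandin E2, gave 521, 440.3 and 328 CPM in the Roquin IP and 12.8, 10.8 and 7.74 CPM in the control IP (log2 fold change 5.38 ± 0.55, edgeR adjusted p = 1.88e-05). All 3 receptors were 25.8- to 57-fold higher, and within each IP the libraries differed by less than 2.5-fold. Icos, the T cell costimulatory receptor, was scarce but enriched, at 22.7, 15 and 19.9 CPM in the Roquin IP and 0, 0.98 and 1.38 CPM in the control IP (log2 fold change 4.35 ± 0.69, edgeR adjusted p = 0.00109). Of the TNF receptor and costimulation list, 1 of 17 was called (median 0.36), and 2 with the block. Of the G protein coupled list, 2 of 33 were called (median 0.10).

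The list of cytokine, chemokine and growth factor receptors had 3 of 35 members called (median 0.45), and only Bmpr1a stayed called without Roquin IP 3 or without control IP 3. Bmpr2, the type II partner of Bmpr1a, was at 53.3, 41.5 and 53 CPM in the Roquin IP and 2.74, 19 and 12.4 CPM in the control IP. Without Roquin IP 1 or 3 or control IP 3, Bmpr2 was no longer called (edgeR adjusted p from 0.0531 to 0.0682). Tyro3, a receptor kinase that senses dying cells, was at 8.81, 4.8 and 5.81 CPM in the Roquin IP and 0, 0.392 and 0.086 CPM in the control IP. The Tyro3 libraries hold few counts: the call ended without control IP 3 (edgeR adjusted p = 0.0501), and the gene fell under the count filter without Roquin IP 3. Pattern recognition receptors, which sense microbial products, had 0 of 29 called higher by edgeR (1 at an unadjusted p under 0.05, 0 by DESeq2), with a median of 0.35.

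Among signalling mRNAs, the NF-kappaB regulators held the most enriched mRNA of all. The adaptors and kinases next to the Toll-like and TNF receptors had 0 of 46 called higher by edgeR (1 at an unadjusted p under 0.05, 0 by DESeq2), with a median of -0.16, and 1 with the block. The NF-kappaB list had 4 of 30 called with a median of -0.15. Nfkbid, a nuclear inhibitor-like protein that tunes NF-kappaB target genes, gave 40676, 48122 and 62950 CPM in the Roquin IP and 115, 97.8 and 110.4 CPM in the control IP (log2 fold change 8.87 ± 1.00, edgeR adjusted p = 4.42e-05). Nfkbiz, a related nuclear protein, gave 31660, 21390 and 17243 CPM in the Roquin IP and 816, 796 and 568 CPM in the control IP (log2 fold change 5.01 ± 0.37, edgeR adjusted p = 1.08e-06). Both rank among the most abundant mRNAs of the Roquin IP and carry the stem-loop letters shown above. Rel, the c-Rel subunit, was enriched less, at 451, 281 and 404 CPM in the Roquin IP and 130.0, 132 and 125 CPM in the control IP (log2 fold change 1.55 ± 0.30, edgeR adjusted p = 0.00601). Itch, an E3 ligase that restrains inflammatory signalling, was at 137, 81.3 and 119 CPM in the Roquin IP and 23.8, 28 and 26.9 CPM in the control IP (log2 fold change 2.09 ± 0.31, edgeR adjusted p = 0.000645). The 4 calls held in all 6 fits that left out 1 IP library.

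Of the MAP kinase cascade, 6 of 55 members were called, with a median of -0.19. Map3k8, the kinase TPL2 that links LPS to ERK, gave 225, 168 and 222 CPM in the Roquin IP and 6.4, 6.27 and 9.46 CPM in the control IP (log2 fold change 4.76 ± 0.31, edgeR adjusted p = 6.86e-07). Map3k2, an upstream kinase of the ERK5 and JNK branches, gave 652, 267 and 475 CPM in the Roquin IP and 47.2, 69.4 and 46.7 CPM in the control IP (log2 fold change 3.09 ± 0.35, edgeR adjusted p = 4.69e-05). Mapk8, the kinase JNK1, gave 109.9, 125 and 138 CPM in the Roquin IP and 23.1, 28.6 and 27.7 CPM in the control IP (log2 fold change 2.23 ± 0.30, edgeR adjusted p = 0.000267). Map3k8 was the most enriched of them, with its control libraries all under 10 CPM. Map4k3 (log2 fold change 2.78 ± 0.39, edgeR adjusted p = 0.000353) and Taok1 (log2 fold change 1.83 ± 0.31, edgeR adjusted p = 0.00184), both upstream kinases, were also higher. The feedback inhibitors of this cascade had 3 of 26 called, and 1 without Roquin IP 1 or without control IP 2. Rasa2, which switches off RAS, gave 153, 109.3 and 137 CPM in the Roquin IP and 46.3, 25.3 and 29.1 CPM in the control IP (log2 fold change 1.99 ± 0.30, edgeR adjusted p = 0.000657). Spred1, a RAS-ERK inhibitor, was at 3197, 1353 and 1986 CPM in the Roquin IP and 722, 678 and 649 CPM in the control IP. Spred1 lost its call without Roquin IP 1 or control IP 2 (edgeR adjusted p from 0.052 to 0.0548). Dusp6, an ERK phosphatase, was at 31.5, 20.2 and 36 CPM in the Roquin IP and 7, 1.96 and 6.96 CPM in the control IP. Leaving out Roquin IP 1, 2 or 3 or control IP 1, 2 or 3 ended the Dusp6 call (edgeR adjusted p from 0.0515 to 0.194).

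The list of cytokine receptor kinases, STATs and SOCS proteins had 5 of 26 called, all of them inhibitors, and each call held in all 6 fits without 1 library. Socs1, the feedback inhibitor of JAK kinases, gave 96.9, 131 and 308 CPM in the Roquin IP and 0.305, 0.784 and 2.41 CPM in the control IP (log2 fold change 6.95 ± 0.73, edgeR adjusted p = 2.25e-05). Pias3, an inhibitor of STAT3 with SUMO ligase activity, gave 346, 149.8 and 139.9 CPM in the Roquin IP and 8.83, 6.47 and 4.47 CPM in the control IP (log2 fold change 5.04 ± 0.45, edgeR adjusted p = 6.3e-06). Both were under 9 CPM in every control library and above 90 CPM in every Roquin IP library. Socs7 was at 696, 313 and 662 CPM in the Roquin IP and 86.5, 63.5 and 71.3 CPM in the control IP (log2 fold change 2.92 ± 0.35, edgeR adjusted p = 7.27e-05). Socs4 (log2 fold change 2.42 ± 0.42, edgeR adjusted p = 0.00232) and Pias2 (log2 fold change 1.78 ± 0.31, edgeR adjusted p = 0.00223) followed. The list as a whole had a median of -0.027, and the other 21 members lay between -1.50 and 0.76.

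Inhibitors of DNA binding, the Id proteins, which block basic helix-loop-helix transcription factors and are classic BMP targets, were bound for all 3 tested genes. Id1 gave 429, 639 and 1055 CPM in the Roquin IP and 5.18, 10.8 and 14.2 CPM in the control IP (log2 fold change 6.09 ± 0.65, edgeR adjusted p = 2.88e-05). Id2 gave 282, 219 and 94.7 CPM in the Roquin IP and 10.7, 8.82 and 2.23 CPM in the control IP (log2 fold change 4.85 ± 0.57, edgeR adjusted p = 6.63e-05). Id3 gave 2394, 2060 and 2048 CPM in the Roquin IP and 56.6, 50.2 and 54.9 CPM in the control IP (log2 fold change 5.33 ± 0.38, edgeR adjusted p = 7.72e-07). The Id mRNAs were 28.9- to 68.3-fold higher, and Id1 was highest and Id2 lowest in the same Roquin IP library, the third. Of the TGF-beta, BMP and Id list, 4 of 15 were called (median 0.16). The other called member was Smurf2, an E3 ligase for SMAD proteins, at 108, 55.6 and 96.9 CPM in the Roquin IP and 36.2, 34.1 and 34.5 CPM in the control IP. Leaving out Roquin IP 1 or 3 or control IP 1, 2 or 3 ended the Smurf2 call (edgeR adjusted p from 0.0531 to 0.177).

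In the Wnt and Notch list 3 of 44 were called (median 0.088), and 1 without Roquin IP 3 or without control IP 2. Tcf7l2, the transcription factor at the end of the Wnt pathway, gave 711, 479 and 516 CPM in the Roquin IP and 9.44, 9.01 and 4.13 CPM in the control IP (log2 fold change 6.28 ± 0.44, edgeR adjusted p = 6.86e-07). The Wnt coreceptor Lrp6 was at 129, 87.9 and 128 CPM in the Roquin IP and 58.2, 32.1 and 43.1 CPM in the control IP. Without Roquin IP 1 or 3 or control IP 2 or 3, Lrp6 was no longer called (edgeR adjusted p from 0.125 to 0.248). Adam17, the protease that sheds TNF from the cell surface, was at 222, 277 and 283 CPM in the Roquin IP and 63.3, 115 and 136 CPM in the control IP. Adam17 lost its call without Roquin IP 2 or 3 or control IP 2 (edgeR adjusted p from 0.0732 to 0.0893). Adam17 shares 311 exon bases with the opposite-strand gene Iah1, and the use of strand in the counting (not given in the sources used here) decides whether their reads can be told apart.

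In the PI3 kinase, AKT and mTOR list 4 of 52 were called (median -0.12), 2 of them catalytic subunits. Pik3ca, encoding p110-alpha, gave 2238, 1170 and 1450 CPM in the Roquin IP and 96.5, 71.1 and 58.6 CPM in the control IP (log2 fold change 4.43 ± 0.36, edgeR adjusted p = 2.81e-06). Pik3cb, encoding p110-beta, gave 219.8, 351 and 281 CPM in the Roquin IP and 43.2, 35.3 and 29 CPM in the control IP (log2 fold change 2.99 ± 0.30, edgeR adjusted p = 1.88e-05). Sesn1, a stress-induced inhibitor of mTORC1, gave 176, 63.1 and 92.5 CPM in the Roquin IP and 21, 6.86 and 7.56 CPM in the control IP (log2 fold change 3.26 ± 0.51, edgeR adjusted p = 0.00103). The catalytic subunits were 21.5-fold and 7.97-fold higher. The regulatory subunit Pik3r1 was at 61.2, 33.5 and 41.2 CPM in the Roquin IP and 9.44, 20.4 and 16.9 CPM in the control IP. Leaving out Roquin IP 1 or 3 or control IP 1 or 3 ended the Pik3r1 call (edgeR adjusted p from 0.0644 to 0.19). Of the PIM, CLK, DYRK, HIPK, SRPK and polo-like kinases, 3 of 29 were called (median 0.089). Clk1, which phosphorylates splicing factors, gave 297, 355 and 248 CPM in the Roquin IP and 4.57, 12.9 and 9.97 CPM in the control IP (log2 fold change 5.00 ± 0.47, edgeR adjusted p = 9.07e-06). The nuclear kinases Hipk1 (log2 fold change 2.54 ± 0.36, edgeR adjusted p = 0.000343) and Hipk2 (log2 fold change 2.54 ± 0.34, edgeR adjusted p = 0.000248) were higher by nearly the same factor, and these 3 calls held in all 6 fits without 1 library.

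**Figure D3:**
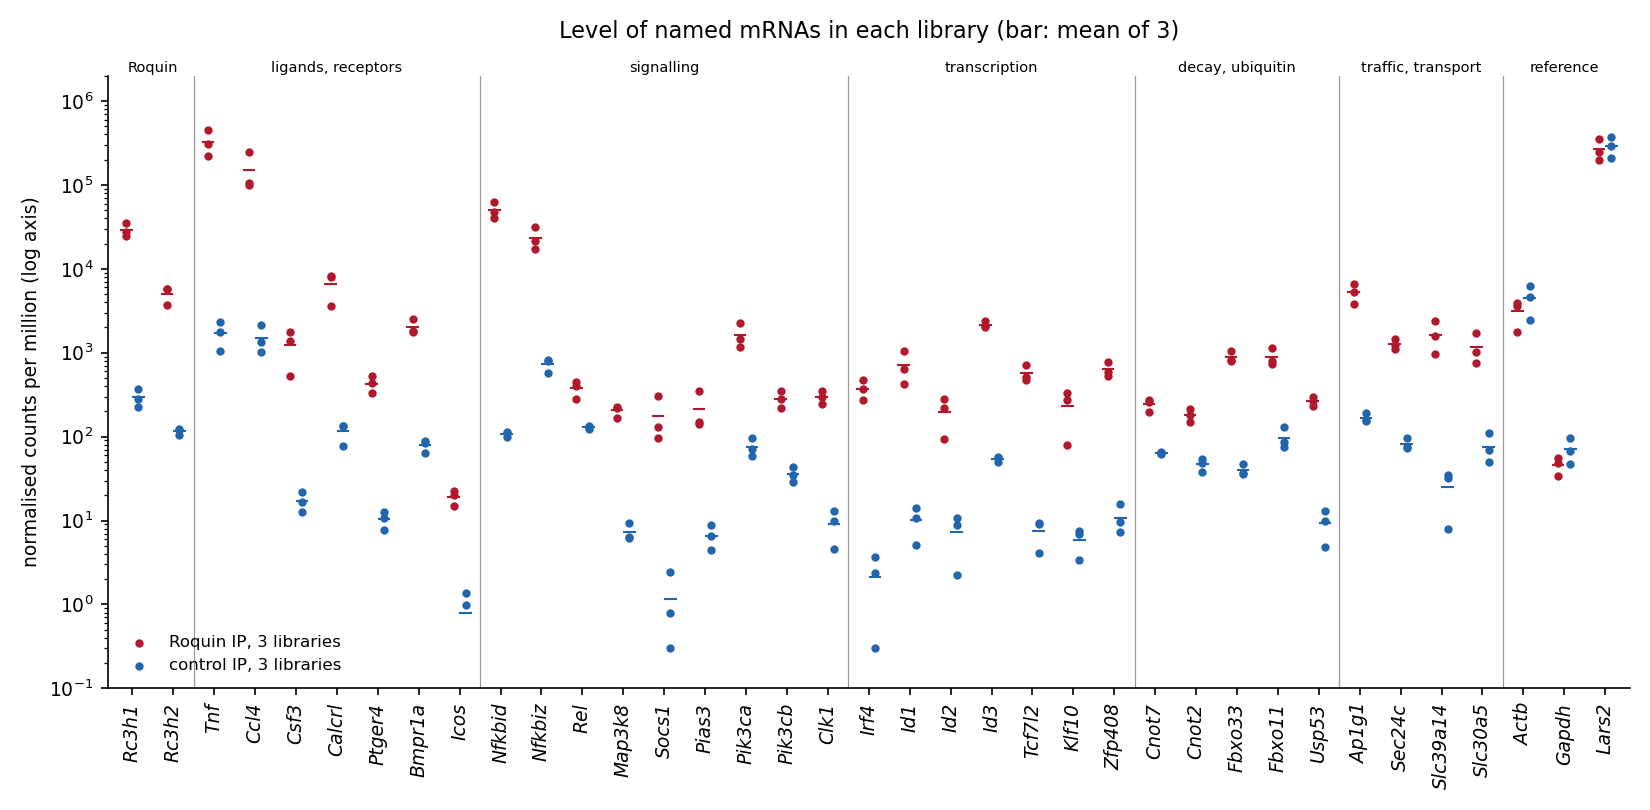
Points are the levels of named mRNAs in the 3 Roquin IP libraries (red) and the 3 control IP libraries (blue) in CPM on a log axis, and short bars are the means of 3. The red and blue points are apart for every bound mRNA drawn and overlap for Actb, Gapdh and Lars2. The control IP 1 value of Icos is 0 CPM and is not drawn.

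Among lists of transcription factors, that of Krüppel-like factors and immediate early genes had the largest share of bound mRNAs. That list also holds early response genes such as Ier3. It had 5 of 45 called (11.1%), each of them also in all 6 fits without 1 library, and a median of -0.069. The share of the IRF, ETS, RUNX and GATA list was close, at 10.3%. Klf10, a TGF-beta-inducible repressor, gave 275, 79.3 and 332 CPM in the Roquin IP and 3.35, 6.86 and 7.48 CPM in the control IP (log2 fold change 5.22 ± 0.56, edgeR adjusted p = 2.66e-05). Ier3, an early response gene that affects survival, gave 4035, 8994 and 5831 CPM in the Roquin IP and 142, 390.2 and 269 CPM in the control IP (log2 fold change 4.56 ± 0.50, edgeR adjusted p = 3.77e-05). Klf10 was lower in Roquin IP 2 than in the other Roquin IP libraries and Ier3 was highest there, and both remained clear of all controls. Klf9 (log2 fold change 2.79 ± 0.41, edgeR adjusted p = 0.000497), Mnt, a repressor that competes with MYC for its partner MAX (log2 fold change 2.37 ± 0.34, edgeR adjusted p = 0.000451), and Ier5 (log2 fold change 2.24 ± 0.27, edgeR adjusted p = 7.27e-05) were higher as well.

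Irf4, a factor of lymphoid cells and alternatively activated macrophages, gave 365, 273 and 478 CPM in the Roquin IP and 0.305, 2.35 and 3.7 CPM in the control IP (log2 fold change 7.25 ± 0.62, edgeR adjusted p = 3.78e-06), far above every control library. In the IRF, ETS, RUNX and GATA list 4 of 39 were called (median 0.16), but Irf4 alone when any 1 IP library except Roquin IP 2 was left out. Gabpb2 at log2 fold change 1.21, Elf2 at 1.30 and Runx1 at 1.13 were the others. The AP-1, ATF, CREB, C/EBP and MAF list had 3 of 41 called (median -0.11), and 1 without Roquin IP 1. Creb1, the cAMP-responsive factor, gave 345, 189 and 307 CPM in the Roquin IP and 85.3, 79.6 and 105 CPM in the control IP (log2 fold change 1.64 ± 0.30, edgeR adjusted p = 0.00318) and was the 1 that held. Creb5 was at 39.8, 6.57 and 6.19 CPM in the Roquin IP and 0.914, 1.37 and 0.602 CPM in the control IP, with 1 Roquin IP library far above the other 2. Without Roquin IP 1, Creb5 was no longer called (edgeR adjusted p = 0.135). Fos, a subunit of AP-1, was at 24.3, 35.5 and 38.9 CPM in the Roquin IP and 0.305, 8.23 and 7.48 CPM in the control IP. Fos lost its call without Roquin IP 1, 2 or 3 or control IP 2 or 3 (edgeR adjusted p from 0.0551 to 0.145).

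Of the basic helix-loop-helix, homeobox, FOX, SOX and E2F factors, 4 of 61 were called (median -0.077), and 1 without Roquin IP 3 or without control IP 2 or 3. The stable member was Bhlhe40, a stress- and clock-linked repressor, at 777, 634 and 439.6 CPM in the Roquin IP and 91.4, 155 and 64 CPM in the control IP (log2 fold change 2.58 ± 0.37, edgeR adjusted p = 0.000451). Nuclear receptors and their coregulators had 0 of 29 called higher by edgeR (1 at an unadjusted p under 0.05, 1 by DESeq2) (median 0.079), and 1 with the block. The large list of genes named Zfp, most of which encode zinc finger proteins, had 7 of 235 called, or 2.98%, and 12 with the block. Zfp408 gave 771, 593 and 534 CPM in the Roquin IP and 15.5, 9.6 and 7.31 CPM in the control IP (log2 fold change 5.90 ± 0.41, edgeR adjusted p = 6.86e-07). Zfp367 gave 287, 276 and 358 CPM in the Roquin IP and 34.1, 36.8 and 27.6 CPM in the control IP (log2 fold change 3.23 ± 0.30, edgeR adjusted p = 8.57e-06). For both, the Roquin IP libraries stood within a factor of 1.5 of each other and far above the controls.

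Chromatin regulators were called at a share close to the 3.76% of all tested genes. Of the histone modifiers and polycomb proteins, 5 of 112 were called (4.46%, median -0.086), and 9 with the block. Bmi1, a core polycomb repressor subunit, gave 311, 343 and 484 CPM in the Roquin IP and 49.3, 62.5 and 88.3 CPM in the control IP (log2 fold change 2.50 ± 0.31, edgeR adjusted p = 0.000106). Setd1a, a histone H3 methyltransferase, gave 635, 373 and 795 CPM in the Roquin IP and 115, 75.6 and 77.9 CPM in the control IP (log2 fold change 2.75 ± 0.36, edgeR adjusted p = 0.000206). Epc1, a subunit of a histone acetyltransferase complex, gave 160.2, 94.1 and 176 CPM in the Roquin IP and 17.4, 13.1 and 23 CPM in the control IP (log2 fold change 3.00 ± 0.51, edgeR adjusted p = 0.002). Each of the 3 was at least 5-fold higher, with no library out of order. Of the remodelling and bromodomain list, 4 of 73 were called (5.48%, median -0.10). Pbrm1, a subunit of the PBAF remodelling complex, gave 426, 284 and 381 CPM in the Roquin IP and 77.1, 77.2 and 69.1 CPM in the control IP (log2 fold change 2.29 ± 0.26, edgeR adjusted p = 5.4e-05). Bptf, the large subunit of the NURF remodeller, gave 279, 185 and 308 CPM in the Roquin IP and 87.4, 44.5 and 61.3 CPM in the control IP (log2 fold change 2.00 ± 0.36, edgeR adjusted p = 0.0028). The values of Mll5 (log2 fold change 2.80 ± 0.48, edgeR adjusted p = 0.00207) and Hmgxb3 (log2 fold change 3.07 ± 0.32, edgeR adjusted p = 2.22e-05) are uncertain, because they share 972 and 873 exon bases with the opposite-strand genes Srpk2 and Csf1r.

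Roquin acts through the mRNA decay machinery, whose own mRNAs are described next. The deadenylation list had 2 of 27 called (7.41%, median 0.16). Cnot7, a catalytic subunit of the CCR4-NOT deadenylase, gave 276, 195 and 262 CPM in the Roquin IP and 66.4, 64.3 and 62.1 CPM in the control IP (log2 fold change 1.93 ± 0.26, edgeR adjusted p = 0.000267). Cnot2, a subunit of its regulatory core, gave 182, 148 and 215 CPM in the Roquin IP and 38.1, 49 and 53.6 CPM in the control IP (log2 fold change 1.95 ± 0.29, edgeR adjusted p = 0.000652). Both were close to 4-fold higher, and Cnot7 shares 192 exon bases with Zdhhc2 on the other strand. The list of decapping, exonuclease, exosome and nonsense-mediated decay factors had 3 of 56 called (5.36%, median -0.18). Lsm2, a subunit of the ring that activates decapping, gave 443, 158 and 344 CPM in the Roquin IP and 67.6, 37.8 and 37.1 CPM in the control IP (log2 fold change 2.73 ± 0.40, edgeR adjusted p = 0.000486). Patl1, which bridges deadenylation and decapping, gave 278, 220.1 and 265 CPM in the Roquin IP and 26.2, 64.3 and 51.7 CPM in the control IP (log2 fold change 2.42 ± 0.39, edgeR adjusted p = 0.00117). Dcp2, the decapping enzyme, was at 270.1, 174 and 307 CPM in the Roquin IP and 81.9, 90.5 and 129 CPM in the control IP. Leaving out Roquin IP 1 or 3 or control IP 1 or 2 ended the Dcp2 call (edgeR adjusted p from 0.0848 to 0.146). Eif2c1, encoding Argonaute 1 of the microRNA pathway, gave 372, 142 and 192 CPM in the Roquin IP and 74, 51.3 and 46 CPM in the control IP (log2 fold change 2.04 ± 0.39, edgeR adjusted p = 0.00543) and was 1 of 18 called in that list, with 2 under the block or without control IP 1. Sequence-specific decay regulators other than the Roquins, such as the zinc finger and AU-rich element proteins, had 0 of 50 called higher by edgeR (2 at an unadjusted p under 0.05, 2 by DESeq2) (median -0.041), and 2 with the block.

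Among mRNAs for splicing and protein synthesis, the most enriched was Rpl22l1. SR proteins, hnRNPs and snRNP subunits had 3 of 107 called (2.8%, median -0.25), and 1 without Roquin IP 3 or without control IP 2 or 3. The member that held was Sfswap, an SR-like splicing regulator, at 143, 101 and 241 CPM in the Roquin IP and 37.8, 24.3 and 29.7 CPM in the control IP (log2 fold change 2.41 ± 0.38, edgeR adjusted p = 0.00091). Translation factors had 2 of 53 called (3.77%, median -0.22), and 4 with the block. Eif4a1, the RNA helicase of the cap-binding complex, was at 1280, 1212 and 1322 CPM in the Roquin IP and 543, 488 and 549 CPM in the control IP (log2 fold change 1.27 ± 0.26, edgeR adjusted p = 0.00856), with tight replicates. Without control IP 2, Eif4a1 was no longer called (edgeR adjusted p = 0.0683). Eif2ak3, the stress kinase PERK, was at 18, 20.5 and 25.8 CPM in the Roquin IP and 9.75, 3.92 and 2.66 CPM in the control IP. Eif2ak3 lost its call without Roquin IP 1, 2 or 3 or control IP 2 or 3 (edgeR adjusted p from 0.0853 to 0.204). No translation factor was called without control IP 2. Cytosolic ribosomal proteins had 1 of 81 called (median -0.23). Rpl22l1, the paralogue of the ribosomal protein gene Rpl22, gave 323, 1255 and 435 CPM in the Roquin IP and 22.2, 27.2 and 27.5 CPM in the control IP (log2 fold change 4.70 ± 0.52, edgeR adjusted p = 3.6e-05), while the other 80 tested members lay between -0.65 and 0.18. Aminoacyl-tRNA synthetases had 1 of 38 called: Aars2, the mitochondrial alanyl enzyme, gave 28.1, 32.2 and 33.7 CPM in the Roquin IP and 4.26, 5.29 and 4.04 CPM in the control IP (log2 fold change 2.79 ± 0.41, edgeR adjusted p = 0.000508). Mitochondrial ribosome and import genes also had 1 of 96 called: Mrps33 gave 141, 153 and 152 CPM in the Roquin IP and 17.4, 12.7 and 21 CPM in the control IP (log2 fold change 3.12 ± 0.32, edgeR adjusted p = 2.22e-05). Among RNA polymerase II, mediator and elongation genes 5 of 134 were called, and 8 with the block, led by Taf1 of the TFIID complex (log2 fold change 2.85 ± 0.43, edgeR adjusted p = 0.000654) and Aff4 of the super elongation complex (log2 fold change 2.95 ± 0.36, edgeR adjusted p = 8.52e-05).

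Within the ubiquitin system, which marks proteins for degradation, several substrate adaptors were bound. Cullin, F-box, BTB and SOCS-box components had 9 of 126 called (median -0.14). Fbxo33, an F-box adaptor, gave 811, 787 and 1059 CPM in the Roquin IP and 37.2, 36.3 and 47.8 CPM in the control IP (log2 fold change 4.45 ± 0.30, edgeR adjusted p = 6.86e-07). Fbxo11 gave 1134, 730.4 and 793 CPM in the Roquin IP and 129, 85.4 and 75 CPM in the control IP (log2 fold change 3.20 ± 0.31, edgeR adjusted p = 1.36e-05). Fbxw7, the adaptor for MYC, JUN and cyclin E, gave 429, 201 and 309 CPM in the Roquin IP and 55.7, 27.8 and 34.3 CPM in the control IP (log2 fold change 3.00 ± 0.35, edgeR adjusted p = 6.43e-05). These 3 F-box mRNAs were 7.99- to 21.9-fold higher, and Roquin IP 1 was the highest library for Fbxo11 and Fbxw7. E2 enzymes and deubiquitinases had 7 of 100 called (median -0.1). Usp53 gave 268, 232 and 299.6 CPM in the Roquin IP and 4.87, 13.1 and 9.88 CPM in the control IP (log2 fold change 4.81 ± 0.38, edgeR adjusted p = 1.93e-06). Ube2q2 gave 576, 355 and 415 CPM in the Roquin IP and 47.5, 48.8 and 60.1 CPM in the control IP (log2 fold change 3.10 ± 0.29, edgeR adjusted p = 8.28e-06). Ube2w (log2 fold change 2.61 ± 0.32, edgeR adjusted p = 9.02e-05) and Usp37 (log2 fold change 2.36 ± 0.32, edgeR adjusted p = 0.000245) were also higher. RING, RBR and HECT ligases had 4 of 165 called, or 2.42% (median -0.03), 7 with the block, and 1 without Roquin IP 1 or Roquin IP 3, which was Itch. Proteasome subunits had 0 of 47 called higher by edgeR (0 at an unadjusted p under 0.05, 0 by DESeq2), a median of -0.42 and 1 member lower with the block.

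Among membrane traffic mRNAs, Ap1g1 was the most enriched of those named. Clathrin, adaptor and endocytosis genes had 8 of 130 called (median -0.20), 7 of them in all 6 fits without 1 library. Ap1g1, the gamma subunit of the AP-1 adaptor that sorts cargo at the trans-Golgi network, gave 6659, 3767 and 5248 CPM in the Roquin IP and 189, 152 and 160.0 CPM in the control IP (log2 fold change 4.97 ± 0.35, edgeR adjusted p = 6.86e-07). Ap1s3, a sigma subunit of the same adaptor, gave 767, 662 and 1258 CPM in the Roquin IP and 49.6, 92.1 and 131 CPM in the control IP (log2 fold change 3.29 ± 0.41, edgeR adjusted p = 9.89e-05). Gga3, another Golgi adaptor, gave 128, 91.3 and 83.3 CPM in the Roquin IP and 21.9, 30.8 and 21.5 CPM in the control IP (log2 fold change 2.02 ± 0.30, edgeR adjusted p = 0.000634), and shares 127 exon bases with Mrps7 on the other strand. Ap1g1 was the most enriched, with every control library under 200 CPM and every Roquin IP library above 3700 CPM. Vps4b, the ATPase that recycles ESCRT complexes, gave 405, 348 and 324 CPM in the Roquin IP and 70.0, 73.1 and 73 CPM in the control IP (log2 fold change 2.31 ± 0.26, edgeR adjusted p = 4.69e-05), and Snx13, a sorting nexin, gave 163.6, 107 and 86.8 CPM in the Roquin IP and 26.8, 27.4 and 14.6 CPM in the control IP (log2 fold change 2.38 ± 0.35, edgeR adjusted p = 0.000595). RAB and ARF GTPases and regulators had 4 of 127 called (median -0.057), and 8 with the block. Arl5b, a Golgi GTPase, gave 422, 257 and 326 CPM in the Roquin IP and 31.7, 61.9 and 50.1 CPM in the control IP (log2 fold change 2.80 ± 0.32, edgeR adjusted p = 4.69e-05), and Cyth3, an exchange factor for ARF proteins, gave 138, 59.9 and 68.5 CPM in the Roquin IP and 3.65, 19.4 and 9.28 CPM in the control IP (log2 fold change 3.01 ± 0.54, edgeR adjusted p = 0.00303). ER to Golgi, SNARE and Golgi proteins had 4 called (3.67% of those tested), and 2 without Roquin IP 1 or without control IP 2 or 3. Sec24c, the cargo-binding subunit of the COPII coat, gave 1245, 1097 and 1446 CPM in the Roquin IP and 75.5, 95.2 and 72.5 CPM in the control IP (log2 fold change 3.96 ± 0.34, edgeR adjusted p = 3.78e-06).

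Glycosylation enzymes, which build sugar chains in the secretory pathway, had 7 of 110 called (median 0.15), 12 with the block, and 4 without Roquin IP 1 or 3 or without control IP 3. Mgat5, which starts a branch of N-glycans, gave 102, 176 and 152 CPM in the Roquin IP and 0, 5.49 and 5.33 CPM in the control IP (log2 fold change 5.18 ± 0.63, edgeR adjusted p = 9.09e-05). Ndst2, an enzyme of heparan sulfate and heparin synthesis, gave 237, 206 and 265 CPM in the Roquin IP and 15.5, 15.3 and 19.3 CPM in the control IP (log2 fold change 3.81 ± 0.38, edgeR adjusted p = 1.42e-05). B4galt5, a galactosyltransferase of glycolipid synthesis, gave 554, 589 and 722 CPM in the Roquin IP and 56.6, 81.3 and 73.7 CPM in the control IP (log2 fold change 3.14 ± 0.30, edgeR adjusted p = 1.05e-05). For Mgat5 the lowest control library had no count and the lowest Roquin IP library was above 100 CPM, with 140 exon bases shared with Tmem163 on the other strand. Folding and stress proteins of the endoplasmic reticulum had 3 of 50 called (median 0.37), and 6 with the block. Dnajc10, a reductase that unfolds proteins for degradation, gave 203, 305 and 440.1 CPM in the Roquin IP and 16.8, 28.4 and 47.6 CPM in the control IP (log2 fold change 3.34 ± 0.40, edgeR adjusted p = 7.27e-05). Sel1l, an adaptor of the degradation complex in the same compartment, gave 130.0, 176 and 154 CPM in the Roquin IP and 29.8, 28 and 33.5 CPM in the control IP (log2 fold change 2.33 ± 0.30, edgeR adjusted p = 0.000127). Lysosomal genes had 3 of 64 called and a median of 0.38, but 1 without control IP 3, which was Atp6v0e, a subunit of the proton pump (log2 fold change 1.94 ± 0.36, edgeR adjusted p = 0.00371).

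Transporter mRNAs included both directions of zinc movement. Solute carriers had 8 called (5.3% of those tested, median 0.19), 7 of them in all 6 fits without 1 library. Slc39a14, the importer ZIP14 for zinc and iron, gave 965, 1577 and 2389 CPM in the Roquin IP and 7.92, 32.1 and 34.8 CPM in the control IP (log2 fold change 6.02 ± 0.60, edgeR adjusted p = 1.42e-05). Slc30a5, a zinc transporter of the secretory pathway, gave 752, 1034 and 1723 CPM in the Roquin IP and 49.3, 68.8 and 111 CPM in the control IP (log2 fold change 3.93 ± 0.40, edgeR adjusted p = 1.85e-05). Both were lowest in Roquin IP 1 and control IP 1 and highest in Roquin IP 3 and control IP 3. Slc25a3, the mitochondrial phosphate carrier, gave 3574, 2809 and 1756 CPM in the Roquin IP and 345, 399.8 and 336 CPM in the control IP (log2 fold change 2.91 ± 0.33, edgeR adjusted p = 4.41e-05). Slc25a25, a mitochondrial carrier of ATP-magnesium, gave 275, 305 and 295 CPM in the Roquin IP and 25.3, 43.1 and 49.9 CPM in the control IP (log2 fold change 2.88 ± 0.30, edgeR adjusted p = 2.22e-05), and its exons share 379 bases with Naif1 on the other strand. Slc6a6, the taurine transporter, gave 706, 598 and 519 CPM in the Roquin IP and 109.3, 114 and 106 CPM in the control IP (log2 fold change 2.47 ± 0.30, edgeR adjusted p = 9.12e-05). Ion channels, pumps and ABC transporters had 0 of 76 called higher by edgeR (11 at an unadjusted p under 0.05, 1 by DESeq2), 3 with the block, and a median of 0.30. Nuclear transport genes had 3 of 64 called (median -0.14), and 5 with the block, led by the import receptors Ipo11 (log2 fold change 3.86 ± 0.33, edgeR adjusted p = 3.39e-06) and Ipo7 (log2 fold change 2.69 ± 0.32, edgeR adjusted p = 7.27e-05).

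In lipid metabolism, the lipins stood out in the sterol and fatty acid list, of which 4 of 54 were called (median 0.014). Lpin1, a phosphatidate phosphatase that also acts as a coregulator of transcription, gave 242, 214 and 87.7 CPM in the Roquin IP and 25.9, 7.45 and 3.52 CPM in the control IP (log2 fold change 3.96 ± 0.72, edgeR adjusted p = 0.00345). Its paralogue Lpin2 gave 409.8, 268 and 197 CPM in the Roquin IP and 76.1, 60.2 and 27.9 CPM in the control IP (log2 fold change 2.42 ± 0.39, edgeR adjusted p = 0.0013). Both lipins were highest in library 1 and lowest in library 3 of the Roquin IP and of the control IP alike. The methylsterol oxidase Sc4mol was at 97.7, 148 and 161 CPM in the Roquin IP and 52.7, 43.7 and 60.6 CPM in the control IP. Leaving out Roquin IP 3 or control IP 2 ended the Sc4mol call (edgeR adjusted p from 0.058 to 0.0699). Npc1, the cholesterol exporter of lysosomes, was at 40.3, 27.1 and 28.3 CPM in the Roquin IP and 7, 11.8 and 9.71 CPM in the control IP, and shares 192 exon bases with 3110002H16Rik on the other strand. Without Roquin IP 1 or control IP 3, Npc1 was no longer called (edgeR adjusted p from 0.0534 to 0.105). Of the prostaglandin and lipid mediator genes 1 of 28 was called: Ptgs2, the inducible cyclooxygenase, was at 339, 617 and 362 CPM in the Roquin IP and 166, 221 and 169 CPM in the control IP (log2 fold change 1.25 ± 0.31, edgeR adjusted p = 0.0315). Ptgs2 lost its call without Roquin IP 2 or control IP 1, 2 or 3 (edgeR adjusted p from 0.066 to 0.222).

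Cell cycle and mitosis genes had 3 of 98 called (3.06%, median -0.24), and 7 with the block. Cenpf, a kinetochore protein, gave 2130, 1161 and 1068 CPM in the Roquin IP and 140.4, 84.1 and 68.2 CPM in the control IP (log2 fold change 3.90 ± 0.40, edgeR adjusted p = 1.88e-05). Cdc7, the kinase that fires replication origins, gave 103, 115 and 165 CPM in the Roquin IP and 12.2, 12.9 and 11.4 CPM in the control IP (log2 fold change 3.39 ± 0.33, edgeR adjusted p = 1.09e-05). Rbl1, the pocket protein p107, gave 156, 144 and 199.5 CPM in the Roquin IP and 57.9, 41.2 and 47.2 CPM in the control IP (log2 fold change 1.78 ± 0.33, edgeR adjusted p = 0.00395). All 3 held in every fit without 1 library, and the lowest Roquin IP library of each was more than 2-fold above its highest control. Of the death and survival genes 2 of 59 were called (3.39%, median -0.12). Rybp, a polycomb partner that also binds death effector domains, gave 848, 562 and 883 CPM in the Roquin IP and 40.5, 31 and 35.7 CPM in the control IP (log2 fold change 4.42 ± 0.33, edgeR adjusted p = 1.08e-06). Cflar, the caspase-8 inhibitor cFLIP, was at 1628, 1170 and 912 CPM in the Roquin IP and 603, 446 and 253 CPM in the control IP. Leaving out Roquin IP 1 or 2 or control IP 2 or 3 ended the Cflar call (edgeR adjusted p from 0.0506 to 0.133). Of the phosphatase subunits and regulators 1 of 65 was called: Ppp1r10, a nuclear targeting subunit of phosphatase 1, gave 517, 279 and 539.5 CPM in the Roquin IP and 39.6, 24.9 and 28.5 CPM in the control IP (log2 fold change 3.85 ± 0.43, edgeR adjusted p = 4.63e-05). Adhesion genes had 1 of 67 called, 5 with the block and 2 without control IP 3: Sema4b, a membrane semaphorin (log2 fold change 2.13 ± 0.39, edgeR adjusted p = 0.00353). Autophagy genes had 1 of 38 called, 2 without control IP 1: Vmp1, a membrane protein of autophagosome formation (log2 fold change 2.22 ± 0.34, edgeR adjusted p = 0.000705). Heat shock proteins and chaperones had 2 of 85 called, among them Dnajb1, a partner of HSP70 (log2 fold change 2.74 ± 0.32, edgeR adjusted p = 5.4e-05). DNA repair genes had 1 of 76 called, Lig4, the ligase of end joining (log2 fold change 2.94 ± 0.62, edgeR adjusted p = 0.0104), which was not called without Roquin IP 3 (edgeR adjusted p = 0.0506).

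**Figure D4:**
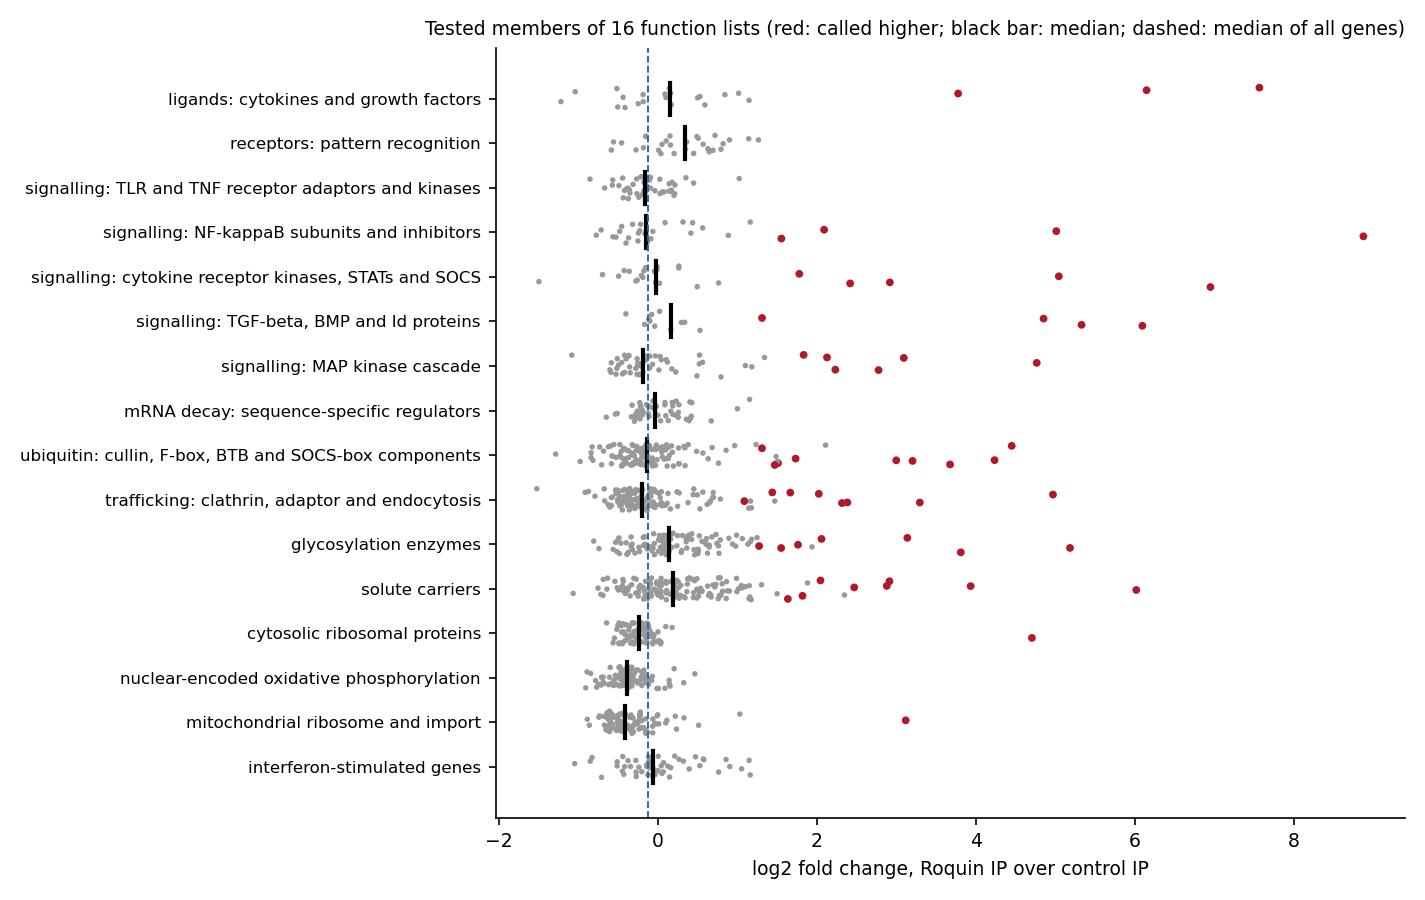
Each point is a tested member of 1 of 16 function lists on the log2 fold change scale, red where called higher, with the list's median as a black bar and the median of all tested genes as a dashed line at -0.12. In most lists the medians lie near the dashed line and a few members lie far to the right. Oxidative phosphorylation, with a median of -0.38, has no called member. The same holds for pattern recognition receptors, receptor adaptors and kinases, sequence-specific decay regulators and interferon-stimulated genes.

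No list showed a called decrease. Nuclear-encoded oxidative phosphorylation genes had 0 of 84 called higher by edgeR (0 at an unadjusted p under 0.05, 0 by DESeq2) and a median of -0.38, and 21 of the 84 were below all 3 controls, against 8.00% of all tested genes. At an unadjusted p under 0.05, 7 members of this list were lower, and 2 were lower with the block. Replication-dependent histones had 0 of 66 called higher by edgeR (0 at an unadjusted p under 0.05, 0 by DESeq2) and a median of -0.40, with 3 lower at an unadjusted p under 0.05 and 1 lower with the block. Glycolysis and pentose phosphate enzymes had 0 of 41 called higher by edgeR (0 at an unadjusted p under 0.05, 0 by DESeq2) and a median of -0.37, with 2 lower at an unadjusted p under 0.05 and 0 with the block. The median of mitochondrial ribosome and import genes was -0.41. Interferon-stimulated genes, induced in LPS-treated macrophages, had 0 of 52 called higher by edgeR (1 at an unadjusted p under 0.05, 0 by DESeq2) and a median of -0.067, with 1 called under the block. Macrophage identity genes had 0 of 28 called higher by edgeR (2 at an unadjusted p under 0.05, 0 by DESeq2) and a median of 0.36. Antigen presentation genes had 0 of 29 called higher by edgeR (1 at an unadjusted p under 0.05, 0 by DESeq2) and a median of 0.43. Housekeeping genes had 0 of 18 called higher by edgeR (1 at an unadjusted p under 0.05, 0 by DESeq2) and a median of -0.36, with 1 called under the block. The smallest p below 0 belonged to Ftsj1, a tRNA methyltransferase, at 4.61, 8.22 and 10.2 CPM in the Roquin IP and 25.3, 20.2 and 14.7 CPM in the control IP (log2 fold change -1.33 ± 0.39, edgeR adjusted p = 0.0918).

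Enrichment among the bound mRNAs ran from 2.02-fold to 469-fold, with a median of 5.16-fold. Of the 360, 114 were over 8-fold, 223 over 4-fold and 137 under 4-fold higher. Cut into 4 bands of 90 by fold, 86, 79, 65 and 18 of the 90 were called in all 6 fits that left out 1 IP library, and 90, 88, 72 and 5 were called with library size alone. In the lowest band, under 3.3-fold, most calls therefore ended in at least 1 of these fits. Of the mRNAs named here, Rel, Creb1, Klhdc2, Bmpr2, Spred1, Smurf2, Adam17, Lrp6, Pik3r1, Fos, Gabpb2, Elf2, Runx1, Dcp2, Eif4a1, Eif2ak3, Cflar, Ptgs2, Sc4mol and Npc1 were not called with library size alone (edgeR adjusted p from 0.0501 to 0.433). Fos, Runx1 and Cflar were also not called when the 6 IP libraries were fitted without the inputs (edgeR adjusted p from 0.0559 to 0.0588). Outside the lists stood 193 bound mRNAs. Among them Smek2, a regulatory subunit of phosphatase 4, gave 2293, 1810 and 2847 CPM in the Roquin IP and 95.9, 76.6 and 93 CPM in the control IP (log2 fold change 4.71 ± 0.32, edgeR adjusted p = 6.86e-07). Zbtb43, a BTB zinc finger protein, gave 549, 354 and 496 CPM in the Roquin IP and 14.9, 21.2 and 21.9 CPM in the control IP (log2 fold change 4.58 ± 0.31, edgeR adjusted p = 6.86e-07). Mthfd2, a mitochondrial enzyme of folate metabolism, gave 2239, 1937 and 1923 CPM in the Roquin IP and 259.8, 254 and 178 CPM in the control IP (log2 fold change 3.14 ± 0.29, edgeR adjusted p = 7.63e-06). The 3 were called in every fit, and within each IP their libraries differed by less than 1.6-fold. In the lowest band, Klhdc2, a substrate adaptor for ubiquitination, gave 120.4, 119 and 122 CPM in the Roquin IP and 38.7, 38.6 and 42.3 CPM in the control IP (log2 fold change 1.59 ± 0.25, edgeR adjusted p = 0.00105), and shares 166 exon bases with Nemf on the other strand. Nop10, a subunit of the pseudouridylation complex, gave 92.3, 104 and 111 CPM in the Roquin IP and 36.9, 28.8 and 31.2 CPM in the control IP (log2 fold change 1.67 ± 0.27, edgeR adjusted p = 0.00116). For both, the gap between the IPs was wider than the range within either. Both were named for being among the 8 genes of smallest p in that band, so they do not stand for its other members.

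The stem-loop letters were more frequent in the bound mRNAs than in all tested genes. In the longest annotated 3′UTR, 62 of 359 bound mRNAs (17.3%) held the pattern, against 565 of 9436 tested genes with a 3′UTR (5.99%). With the 2 further base pairs required, the shares were 9.47% and 1.40%. In coding sequences, searched in the same way, they were 6.96% and 5.60%. The bound mRNAs had longer 3′UTRs, with a median of 2008 nt against 1187.5 nt, and a lower GC content there, 41.1% against 44.2%. Length changes how often letters occur, so the shares are also given by length. For 3′UTRs over 500 to 1000 nt, 9 of 47 bound mRNAs (19.1%) and 3.31% of all held the pattern. Over 1000 to 2000 nt the shares were 16.2% and 5.08%, and over 2000 nt they were 19.4% and 12.7%. Up to 500 nt, 1 of 27 bound mRNAs (3.70%) and 0.901% of all held it. The core TTCTGTGAA made up 45 of the 72 sites in bound mRNAs (62.5%) and 280 of the 600 sites in all tested genes (46.7%).

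**Figure D5:**
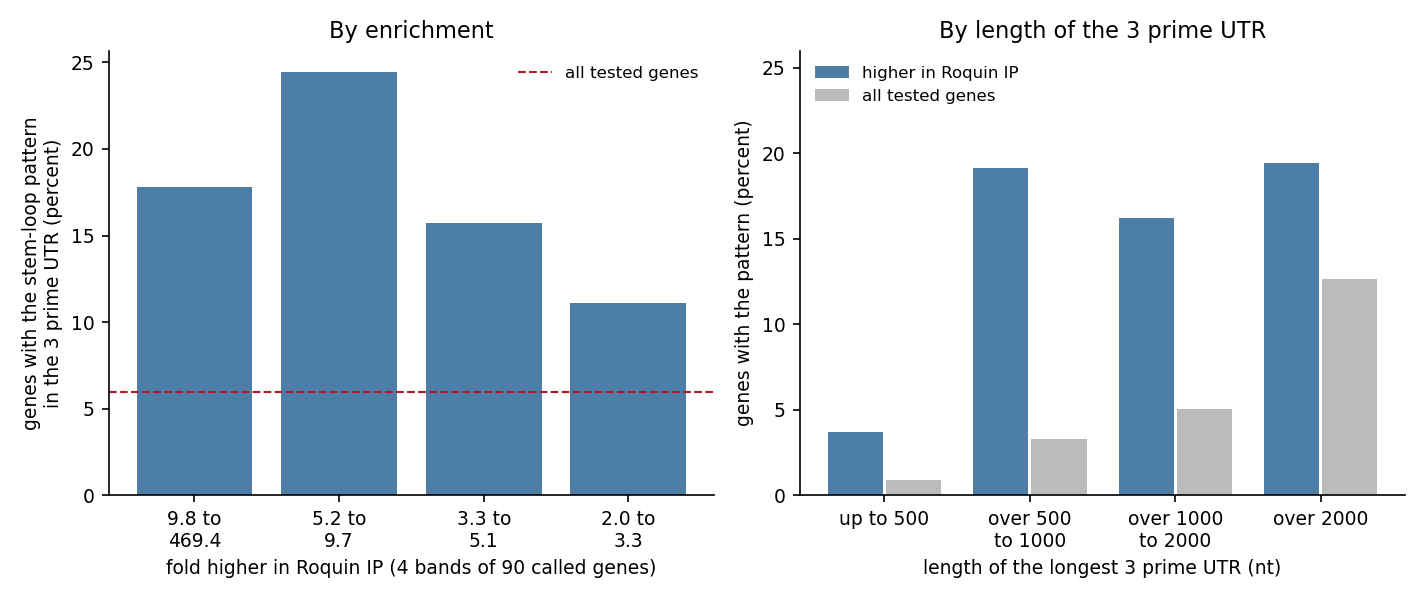
The left bars give the percent of bound mRNAs with the stem-loop pattern in the 3′UTR in 4 bands of fold enrichment, with the 5.99% of all tested genes as a dashed line. The right bars give it by length of the 3′UTR for bound mRNAs (blue) and all tested genes (grey). The share is 24.4% in the band second from the top and 17.8% in the top band.

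By band of fold, from the highest, 17.8%, 24.4%, 15.7% and 11.1% of the bound mRNAs held the pattern. Among the strongly enriched mRNAs named above, Irf4, Socs1, Ccl4, Csf3, Calcrl, Id1, Id2, Id3, Tcf7l2, Slc39a14, Map3k8, Clk1, Pik3ca and Ap1g1 have no match in the longest annotated 3′UTR. The authors' deposited table also gives a predicted decay element class for each gene. Of 37 tested genes with a conserved 3′UTR element in that table, 23 were bound (median log2 fold change 2.48), against 4 of 38 with an element that is not conserved, 4 of 55 with an element in the reading frame and 329 of 9437 with none (3.49%). With the block, the calls in these 4 classes were 25 of 37, 6 of 38, 11 of 55 and 486 of 9437, against 5.52% of all tested genes. In all, 31 of the 360 bound mRNAs (8.61%) carried a predicted element in the deposited table, while 9437 of all 9567 tested genes carried none. The 31 were 15, 9, 5 and 2 of the 90 in each band from the highest fold to the lowest.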

How the data were processed

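The authors deposited raw read counts per gene for 9 libraries, per the file headers, made with the TruSeq RNA kit, per the labels' protocols, and with CASAVA 1.8.2, BWA and DESeq 1.8.3, per the submitters' processing notes. Not given in the sources used here: genome build, annotation and strand handling of the counts. The authors' deposited ratio of Roquin IP over control IP and their deposited p-value were not used, and their decay element class was. Counts were tested with edgeR 4.0.16 (R 4.3.3): filterByExpr with a minimum count of 10, TMM factors, glmQLFit and glmQLFTest with group as the only term and all 9 libraries in 1 fit, Benjamini-Hochberg adjustment over 9567 genes, threshold 0.05. The common biological coefficient of variation was 0.350, and errors beside log2 fold changes are approximate SE derived from the F value. The script was tested on simulated data. DESeq2 1.42.0, RLE factors, library size alone, other filters, 6 libraries only, thinning, robust estimation and leaving out each IP library were alternatives. Libraries of one number deviated together (r across genes 0.33, 0.32 and 0.58 for the 3 Roquin-control pairs), a pairing that comes from the data and not from the labels, so a fit with the number as a block was run too. Replicates were not duplicates (r of log2 CPM 0.832 to 0.957). Symbols were matched to GENCODE vM21 (GRCm38) by symbol (18728), by synonym (1535) or by RefSeq symbol only (29), 175 were not matched, and 3′UTRs are the longest annotated. The members and the function lists were chosen with earlier results of these data known. Named genes were up to 5 called members of each list by smallest p, or its smallest-p and its most abundant member where none was called, 8 of smallest p in each of 4 bands by fold, 8 of smallest p below 0, and Rc3h1, Rc3h2, Actb, Gapdh and Lars2. Of the 65 lists, 1 (noncoding RNAs, 3 tested, 0 higher) is not described because its pattern also took protein-coding genes. Some genes and 1 list are not reported here.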

Additional observations from a re-analysis of the deposited data

How the results depend on the processing

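The count of 360 higher genes ranged from 257 (library size alone) to 528 (replicate block) over 16 alternatives, and from 276 to 371 when 1 IP library was left out. With the block, which pairs libraries of one number, all 360 were still called, and 11 genes were called lower. The block ended none of the calls, and where it moved a list's count by over 1.5 times that count stands beside the list. The count of lower genes was 0 with all libraries and 3708 with library size alone, 21 with no low-count filter, 5 with all libraries thinned to the smallest, 6 in DESeq2, and 0 to 3 when 1 library was left out, 3 of them without control IP 3. With the stricter pattern, the share with the stem-loop moved from 17.3% to 9.47% in bound mRNAs and from 5.99% to 1.40% in all tested genes. In coding sequences, a different region, the shares were 6.96% and 5.60%. Of 167 named bound mRNAs, 122 were called under every alternative that tested them, and none changed sign. Signs of genes that were not called changed in these cases. With library size alone, which lowers all genes, the log2 fold changes became -0.81 for Cd14, -0.83 for Traf1, -0.42 for Cxcl10, -0.0078 for Ptprc, -0.67 for Hist2h2bb, -0.13 for Cd74, -0.77 for B2m, -0.14 for Epb4.1l5 and -0.066 for Tubb5. When 1 library was left out, Lars2 ranged from -0.38 to 0.093, Cd14 from -0.13 to 0.17, Traf1 from -0.13 to 0.32, B2m from -0.29 to 0.80, Clic4 from -0.35 to 0.22 and Psme3 from -0.45 to 0.22. Psme3 was 0.0015 with the replicate block and 0.18 after thinning. The cause was not tested. Counts were fewest for Tyro3 and Edn1, which were not tested with a minimum count of 30, and after thinning Edn1, Dusp6, Adam17, Lrp6, Fos, Elf2, Runx1, Eif2ak3, Npc1 and Lig4 were not called (edgeR adjusted p from 0.0673 to 0.608).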

Other observations

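Close relatives of the bound mRNAs are given as values here, and these genes were chosen after their values were seen. Ccl3, a chemokine close to Ccl4, was at 1880, 2991 and 1528 CPM in the Roquin IP and 1613, 1782 and 1085 CPM in the control IP (log2 fold change 0.51 ± 0.36, edgeR adjusted p = 0.708), while the Ccl4 estimate was 6.67. Rpl22 was at 162, 194 and 136 CPM in the Roquin IP and 201, 145 and 199 CPM in the control IP (log2 fold change -0.15 ± 0.30, edgeR adjusted p = 0.913), with Rpl22l1 at 4.70. Of the CLK kinases, Clk4 was at 22.6, 23.6 and 17.2 CPM in the Roquin IP and 20.1, 17.4 and 15.5 CPM in the control IP (log2 fold change 0.26 ± 0.35, edgeR adjusted p = 0.856), with Clk1 at 5.00. Cnot8, the other catalytic subunit of its type beside Cnot7, was at 42.4, 41.5 and 40.6 CPM in the Roquin IP and 61.5, 54.7 and 51.5 CPM in the control IP (log2 fold change -0.43 ± 0.26, edgeR adjusted p = 0.658), and Cnot7 at 1.93. Eif4a2 was at 39.8, 52.8 and 39.5 CPM in the Roquin IP and 57.6, 61.3 and 53.8 CPM in the control IP (log2 fold change -0.38 ± 0.26, edgeR adjusted p = 0.699), and Eif4a1 at 1.27. All 360 bound mRNAs had every Roquin IP library above every control library, so that order adds nothing for the bound relatives. The relatives that were not called lacked that order, and they were chosen with their values known. The difference within a pair was not tested.

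Among SOCS genes, Socs3 was at 127, 189 and 227 CPM in the Roquin IP and 128, 242 and 177 CPM in the control IP (log2 fold change -0.0084 ± 0.32, edgeR adjusted p = 0.998). Socs5 was at 71.7, 54.2 and 79.7 CPM in the Roquin IP and 79.8, 60.6 and 94.3 CPM in the control IP (log2 fold change -0.19 ± 0.29, edgeR adjusted p = 0.879). The called Socs1, Socs7 and Socs4 were at 6.95, 2.92 and 2.42. Irf8 was at 143, 94.9 and 79 CPM in the Roquin IP and 179, 144 and 95.7 CPM in the control IP (log2 fold change -0.41 ± 0.32, edgeR adjusted p = 0.742), with Irf4 at 7.25. The lymphoid and myeloid PI3 kinase subunits Pik3cd (log2 fold change -0.26 ± 0.35, edgeR adjusted p = 0.857) and Pik3cg (log2 fold change -0.42 ± 0.47, edgeR adjusted p = 0.817) were not called, with Pik3ca at 4.43 and Pik3cb at 2.99. Nfkbia, the classic inhibitor of NF-kappaB, was at 987, 938 and 774 CPM in the Roquin IP and 1371, 1189 and 808 CPM in the control IP (log2 fold change -0.32 ± 0.29, edgeR adjusted p = 0.779), with Nfkbid at 8.87. Ap1g2 was at 15.5, 10.2 and 7.74 CPM in the Roquin IP and 15.5, 18.2 and 10.1 CPM in the control IP (log2 fold change -0.41 ± 0.44, edgeR adjusted p = 0.811), with Ap1g1 at 4.97. Map3k3 was at 52.4, 39.3 and 49.4 CPM in the Roquin IP and 34.7, 63.3 and 53 CPM in the control IP (log2 fold change -0.10 ± 0.30, edgeR adjusted p = 0.934), with Map3k2 at 3.09. The lipins and the Id genes were not divided in this way: both tested lipins and all 3 tested Id genes were called.

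Several mRNAs of inflammatory inhibitors were not called without the replicate number as a block and were called with it. Zc3h12a, the endonuclease Regnase-1, was at 286, 148 and 193 CPM in the Roquin IP and 108, 117 and 88.4 CPM in the control IP (without the block, edgeR adjusted p = 0.114; with it, log2 fold change 0.95, edgeR adjusted p = 0.0235). Its paralogue Zc3h12c was at 1179, 669 and 804 CPM in the Roquin IP and 603, 311 and 281 CPM in the control IP (without the block, edgeR adjusted p = 0.114; with it, log2 fold change 1.19, edgeR adjusted p = 0.00117). Tnfaip3, the NF-kappaB inhibitor A20, was at 902, 645 and 539.8 CPM in the Roquin IP and 421, 309.8 and 203 CPM in the control IP (without the block, edgeR adjusted p = 0.0627; with it, log2 fold change 1.18, edgeR adjusted p = 0.00125). The 3 are named because only the fit with the block called them. Their order within each replicate number follows from that choice and is no further evidence. Of all 9567 tested genes, 528 (5.52%) were called higher with the block and 360 (3.76%) without it. Zfp36, encoding the decay factor tristetraprolin, was at 254, 335 and 199 CPM in the Roquin IP and 309, 426 and 209.4 CPM in the control IP (log2 fold change -0.26 ± 0.31, edgeR adjusted p = 0.825).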
